A study of Rattus norvegicus with 2 samples.

Results

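The genes examined here carry out cholesterol synthesis (the sterol arm, 21 genes) and the synthesis of fatty acids and triglycerides (the fatty acid arm, 13 genes). Members were taken as the probe sets that the array's annotation assigns to a single gene whose current or older symbol is on the list of 34, and where a gene had several, the brightest on average stands for it. Of the 34, 33 were measured, out of 14217 genes on the array, while Hmgcs1 was not analysed here. These 33 genes had 53 probe sets in all.

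Esophagus of male Sprague-Dawley rats, 5 to 6 weeks old, was profiled on an Affymetrix rat array after gavage with OSU-HDAC42, an inhibitor of histone deacetylases, or with vehicle. Both groups received 7 gavages over a 15-day course. The inhibitor was given at 50 mg/kg each time, which sums to 350 mg/kg, and esophagi were taken 24 hours after the final gavage. Each group had 1 array, so there are no replicates and no p-value or error between rats can be given. Whether the RNA of an array came from a single rat or a pool is not stated in the labels.

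Cells build cholesterol from acetyl-CoA through mevalonate, squalene and lanosterol, and fatty acids through malonyl-CoA, with later enzymes lengthening and desaturating the chains. Both routes are under the SREBP transcription factors, which are held in the endoplasmic reticulum by INSIG proteins when sterols are plentiful and are released when sterols are scarce. In stratified squamous epithelium, as lines the esophagus, cholesterol and fatty acids are also made for the lipids between the outer cell layers.

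Values are linear probe set intensities, given in the order OSU-HDAC42 then vehicle, and those under 16 were raised to 16 for differences. A difference is in log2 intensity, OSU-HDAC42 minus vehicle. An expression floor was set at the median probe set, an intensity of 49.8 for the mean of both arrays, and a gene was above it when its higher array reached it. Of the 33 measured members, 31 were above the floor, each of them on both arrays, and the other two, Acacb and Fads2, were under 16 on both arrays. Non-control probe sets had medians of 48.4 and 49.1. As a measure of RNA integrity, the ratio of 3' to 5' probe sets was 6.29 against 7.76 for beta-actin and 2.09 against 2.32 for GAPDH. The esophageal keratins Krt13 (14438 against 14947) and Krt5 (6116 against 6449) were bright on both arrays.

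In the OSU-HDAC42 sample a few lipid synthesis genes were higher, among many that differed little. Scd, Stard4, Fads1 and Dgat1 were at least 1.5-fold higher, and no member was 1.5-fold lower. Acaca, at 1.495-fold lower, fell just short, and it passed 1.5-fold lower after quantile normalization (-0.61) and lowess trend removal (-0.61). Scd alone passed 2-fold, and Stard4 joined it when the arrays were median-centred, quantile-normalized or freed of a lowess trend. The background was taken over all 9542 genes above the floor. Of these, 5.05% passed 2-fold, 1.88% upward and 3.18% downward, and 7.6% and 10.9% passed 1.5-fold in these directions, so 4 of 31 members at 1.5-fold higher and 0 at 1.5-fold lower are to be read against those shares. By direction alone, 12 members were higher and 19 lower, where the background was 46.8% higher and 52.8% lower. The median difference of the 31 was -0.059, against -0.027 over all genes above the floor.

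**Figure D1:**
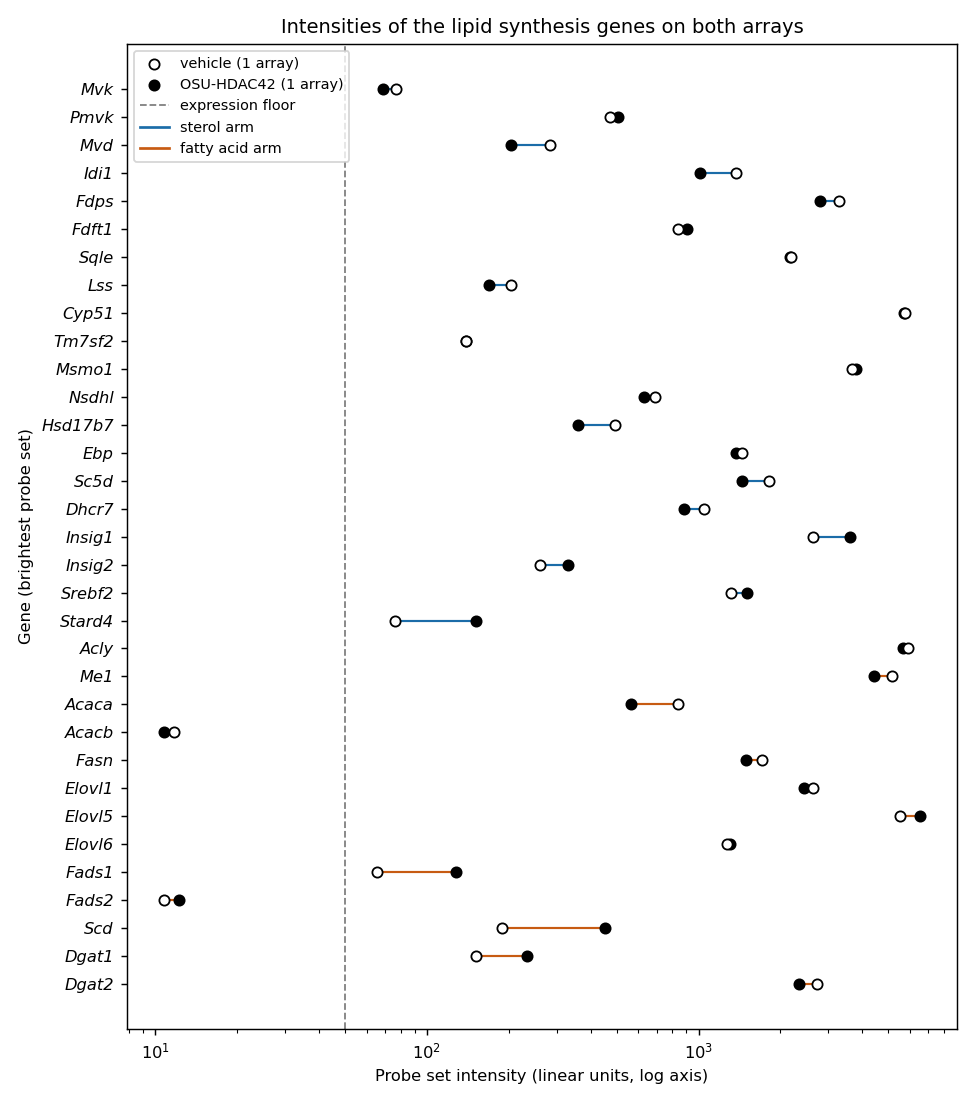
Intensity of each measured gene on the OSU-HDAC42 array (filled circles) and the vehicle array (open circles), on a log axis, 1 array per group, with the line coloured by arm and the dashed line at the expression floor of 49.8. The widest gaps are those of Scd, Stard4 and Fads1, and Acacb and Fads2 lie far left of the floor.

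The promoters of the genes at both ends of the range are shown so that their letters can be set beside motifs known from sterol gene promoters. Among members with a promoter in the RefSeq table of the GRCr8 assembly (24 of 33), Scd and Fads1 had the highest differences and Mvd and Hsd17b7 the lowest. Each window runs 5′ to 3′ on the gene's strand, from 250 bases before the annotated start to 50 after it, 300 bases in all. Scd lies at chr1:253231682-253231981 on the minus strand, Fads1 at chr1:216252442-216252741 on the plus strand, Mvd at chr19:67414925-67415224 on the minus strand and Hsd17b7 at chr13:84722705-84723004 on the minus strand. The array's own genome build is not given in the sources used here. Capitals mark CCAAT, the letters bound by NF-Y, and GGGCGG, the letters bound by Sp1, each on either strand, so that ATTGG and CCGCCC are the same motifs read on the other strand.
Scd: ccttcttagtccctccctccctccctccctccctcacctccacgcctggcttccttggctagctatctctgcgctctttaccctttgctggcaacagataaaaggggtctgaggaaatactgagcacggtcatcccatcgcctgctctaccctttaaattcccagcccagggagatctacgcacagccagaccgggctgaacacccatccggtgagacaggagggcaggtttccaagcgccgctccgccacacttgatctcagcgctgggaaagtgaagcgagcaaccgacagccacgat
Fads1: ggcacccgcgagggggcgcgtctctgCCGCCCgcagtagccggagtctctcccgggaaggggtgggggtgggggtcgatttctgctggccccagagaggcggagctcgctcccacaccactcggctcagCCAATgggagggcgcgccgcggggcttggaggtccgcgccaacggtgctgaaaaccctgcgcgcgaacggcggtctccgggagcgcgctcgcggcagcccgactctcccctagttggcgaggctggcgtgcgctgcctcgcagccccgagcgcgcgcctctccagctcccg
Mvd: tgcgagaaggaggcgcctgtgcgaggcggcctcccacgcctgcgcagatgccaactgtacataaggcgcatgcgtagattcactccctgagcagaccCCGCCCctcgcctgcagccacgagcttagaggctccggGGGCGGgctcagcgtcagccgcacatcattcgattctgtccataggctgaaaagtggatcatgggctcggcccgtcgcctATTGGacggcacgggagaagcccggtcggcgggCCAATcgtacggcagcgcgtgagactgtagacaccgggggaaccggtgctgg
Hsd17b7: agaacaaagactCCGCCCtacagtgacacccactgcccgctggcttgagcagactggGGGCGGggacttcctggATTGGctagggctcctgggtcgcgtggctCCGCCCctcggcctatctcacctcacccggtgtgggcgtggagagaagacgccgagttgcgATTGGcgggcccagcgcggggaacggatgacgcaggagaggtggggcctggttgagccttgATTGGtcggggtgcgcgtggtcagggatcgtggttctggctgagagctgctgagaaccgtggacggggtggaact
The Scd window held neither motif, and the Fads1 window held 1 CCAAT and 1 GGGCGG. The Mvd window held 2 of each and the Hsd17b7 window 3 of each.

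CCAAT was frequent in the sterol promoters. It was present in 14 of 16 sterol arm windows (87.5%), with 2 or more copies in 9 (56.2%), and in 4 of 8 fatty acid arm windows (50.0%), against 37.5% of all 33469 promoters of this length and 36.8% of the 13242 that belong to genes measured on the array. GGGCGG was present in 13 of 16 sterol windows (81.2%) and 4 of 8 fatty acid windows, against 33.1% of all promoters and 55.7% of those of measured genes. The E-box CACGTG was found in 3 of the 24 windows (12.5%), those of Sc5d, Elovl5 and Insig1. It was in 6.42% of all promoters and 8.62% of those of measured genes. The sterol response element was searched as TCACNCCAC, which was in none of the 24 windows and in 1.12% of all promoters. Both strands were searched, overlapping matches were counted separately, and CACGTG, which reads the same on both strands, was counted once. The counts describe letters in these windows and were not tested against the differences.

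In the sterol arm, most enzymes were slightly lower, and the listed regulators (Insig1, Insig2, Srebf2) and transfer protein (Stard4) were higher. Related regulators and sterol carriers outside the arm were mixed, as given below. Of the 16 measured enzymes, the union of the 3 enzyme groups, 13 were lower and 3 higher (median -0.14). All 4 regulators and transfer proteins were higher (median 0.40). Over all genes above the floor, 52.8% were lower and 46.8% higher, with a median of -0.027. Of the 13 lower enzymes, Tm7sf2 (-0.0058), Cyp51 (-0.021) and Sqle (-0.022) were nearly equal on both arrays. The signs of Tm7sf2, Cyp51 and Mvk turned under other scalings or probe set choices. The range of the enzymes, from -0.47 to 0.11, was narrow, and none reached 1.5-fold. For scale, probe sets of the same gene above the floor differed from each other with a root mean square of 0.41 over 3622 pairs in 2116 genes.

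The mevalonate steps were measured through 4 genes. Mvd, the decarboxylase that makes isopentenyl diphosphate, stood at 204 after OSU-HDAC42 and 283 after vehicle, a difference of -0.47. Idi1, the isomerase of that product, stood at 1011 against 1371, a difference of -0.44. Its other probe set, at 608 against 900, differed by -0.56, so both probe sets of Idi1 were lower. Mvk, mevalonate kinase, was dim, at 69.1 against 77.2 (-0.16), and its other probe set above the floor went the opposite way (0.21). Pmvk, phosphomevalonate kinase, stood at 505 against 470 (0.10). Over these 4 genes the median was -0.30.

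From farnesyl diphosphate to lanosterol, differences were small. Fdps, which makes farnesyl diphosphate, stood at 2790 against 3283, a difference of -0.23. Fdft1, squalene synthase, stood at 906 against 842 (0.11), and its other probe set differed by 0.31. Sqle, squalene monooxygenase and a control point of the pathway, was nearly equal at 2162 against 2195 (-0.022). Lss, which closes the rings to lanosterol, stood at 169 against 204 (-0.27), while its other probe set differed by 0.13. The group's median was -0.13.

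The 8 enzymes that turn lanosterol into cholesterol had a median of -0.098, with 7 lower and 1 higher. Hsd17b7, a keto-reductase of sterol demethylation, was the lowest at 361 against 494 (-0.45), and its dimmer probe set, under the floor, differed by -0.41. Sc5d, a sterol desaturase, stood at 1442 against 1813 (-0.33), with its other probe sets at -0.26 and 0.047. Dhcr7, the reductase of the last step, stood at 885 against 1043 (-0.24). Cyp51, the lanosterol demethylase, was close to equal on its brightest probe set, at 5693 against 5776 (-0.021), and its other one differed by -0.18. The other steps also differed little: Msmo1, a methylsterol oxidase, by 0.054, Tm7sf2, a sterol reductase, by -0.0058, Ebp, a sterol isomerase, by -0.069, and Nsdhl, a sterol dehydrogenase, by -0.13 and -0.095 on its probe sets. The signs of Tm7sf2 and Cyp51 turned when the arrays were scaled in other ways, so their direction was not settled.

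The regulators listed in this arm and its transfer protein were all higher. Stard4, which carries cholesterol between membranes, stood at 152 after OSU-HDAC42 and 76.3 after vehicle, a difference of 0.99 (1.99-fold). Its second probe set, at 127 against 64.9, differed by 0.97, so the 2 probe sets above the floor gave nearly the same value. Of all genes above the floor, 5.14% differed at least as much as Stard4 in either direction.

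Insig1, the endoplasmic reticulum anchor of the SREBP complex and itself a target of SREBP, stood at 3612 against 2631 (0.46, 1.37-fold). Its relative Insig2, which shares the anchoring role, stood at 332 against 261 (0.34), and its other probe set differed by 0.14. Srebf2, the SREBP that chiefly drives cholesterol genes, stood at 1514 against 1318 (0.20). Of all genes above the floor, 27.2% differed at least as much as Insig1. Among genes with a mean intensity of 1000 or more, where the SD of the differences was 0.32, Insig1 lay outside that SD upward and Idi1 and Sc5d downward.

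**Figure D2:**
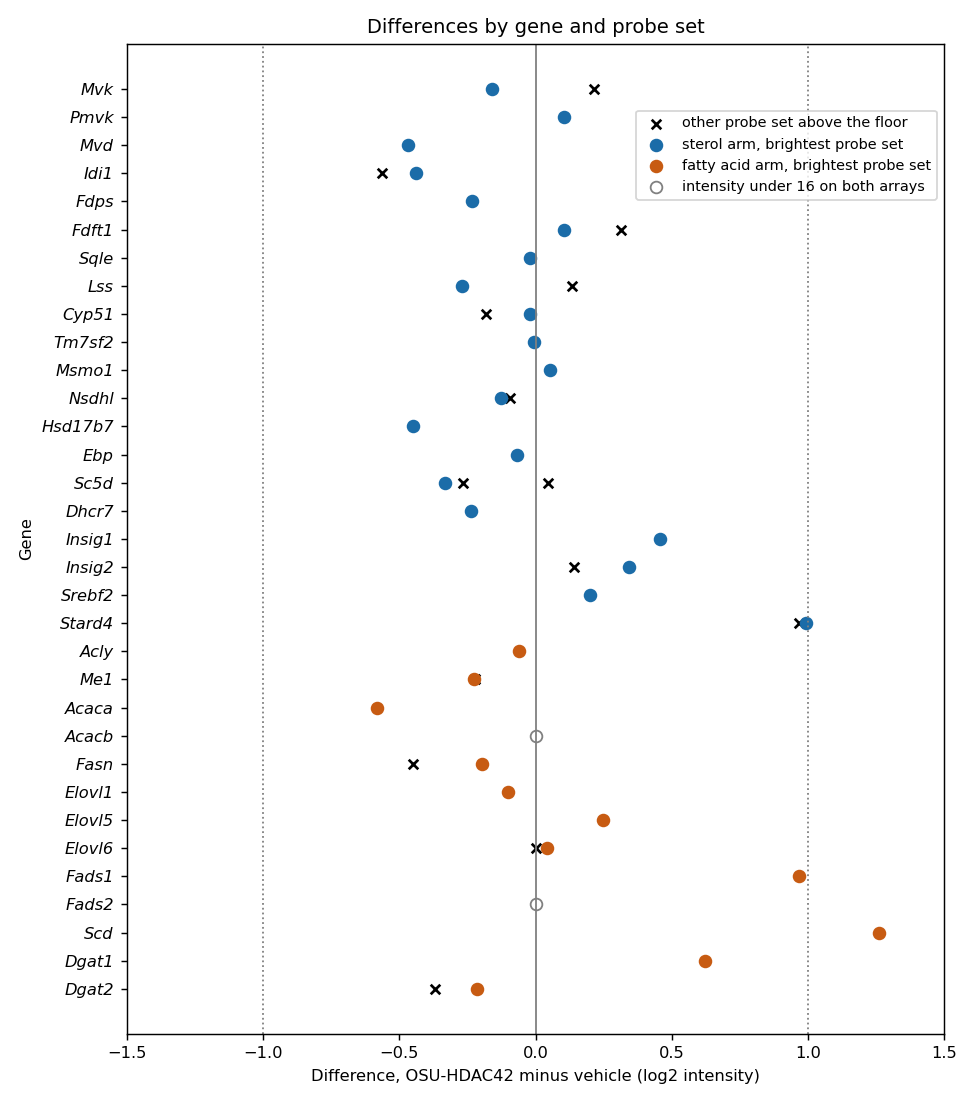
Difference in log2 intensity, OSU-HDAC42 minus vehicle, for each gene on its brightest probe set (filled circles, coloured by arm) and on its other probe sets above the floor (crosses); open circles are genes under 16 on both arrays and dotted lines mark 2-fold. Most sterol enzymes lie left of 0, the 4 genes from Insig1 to Stard4 lie right of it, and Scd lies past 2-fold.

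In the fatty acid arm, the genes of chain building above the floor, Acaca and Fasn, were lower, and the desaturases above it, Scd and Fads1, were higher. It had 11 genes above the floor, 5 of them higher and 6 lower, and their median was -0.059. Differences in this arm ran from -0.58 to 1.26, and their SD was 0.56 against 0.35 in the sterol arm.

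Scd, stearoyl-CoA desaturase, which makes monounsaturated fatty acids, stood at 454 after OSU-HDAC42 and 189 after vehicle, a difference of 1.26 (2.40-fold). It had the largest difference of any member, and 2.23% of all genes above the floor differed at least as much in either direction. A single probe set measured Scd, so no other probe set bears on it. Fads1, the delta-5 desaturase of polyunsaturated fatty acids, stood at 128 against 65.6, a difference of 0.97 (1.95-fold), also on a single probe set. Fads2, which acts before Fads1 in the same route, was at 12.2 against 10.8, where no difference could be measured. Scd2, a second stearoyl-CoA desaturase that was chosen after its values were seen, had 6723 against 6958 on its brightest probe set (-0.050), and its 2 other probe sets above the floor differed by 0.14 and 0.51.

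Acaca, the cytosolic acetyl-CoA carboxylase that makes malonyl-CoA, was the lowest member of either arm. It stood at 563 against 842, a difference of -0.58 (1.495-fold lower, just short of the 1.5-fold threshold), and its other probe set was under the floor, at 23.3 against 17.3. With both probe sets averaged, the Acaca difference was -0.076, and it passed 1.5-fold lower after quantile normalization (-0.61) and lowess trend removal (-0.61). Fasn, the synthase that builds palmitate, was lower on both of its probe sets, at 1496 against 1712 (-0.19) and 497 against 679 (-0.45). Acacb, the carboxylase form found at mitochondria, was at 10.8 against 11.7, under the raised value on both arrays.

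The genes that supply substrate were slightly lower. Acly, which makes cytosolic acetyl-CoA from citrate, stood at 5653 against 5889 (-0.059). Me1, the malic enzyme that yields NADPH, stood at 4410 against 5154 (-0.22), with its other probe set also at -0.22. Of the elongases, Elovl5, which lengthens polyunsaturated chains, stood at 6517 against 5492 (0.25). Elovl6, which lengthens palmitate, stood at 1308 against 1272 (0.041), and Elovl1, which makes very long saturated chains, at 2448 against 2628 (-0.10).

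The enzymes of the last step of triglyceride synthesis went in different directions. Dgat1 stood at 233 against 152, a difference of 0.62 (1.54-fold), on a single probe set. Dgat2 stood at 2351 against 2729 (-0.22) and at 710 against 917 (-0.37) on its probe sets.

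Set side by side, the arms did not separate by their medians. The median was -0.046 over 20 measured sterol genes and 0.00 over 13 measured fatty acid genes, the latter including Acacb and Fads2, whose raised values fix a difference of 0. Over genes above the floor it was -0.046 and -0.059, so the order of the arms turned with the inclusion of those 2 dim genes. Past 1.5-fold higher stood 3 of 11 fatty acid genes and 1 of 20 sterol genes above the floor, beside 7.6% of all genes. No test of the difference between the arms could be made with 1 array per group.

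**Figure D3:**
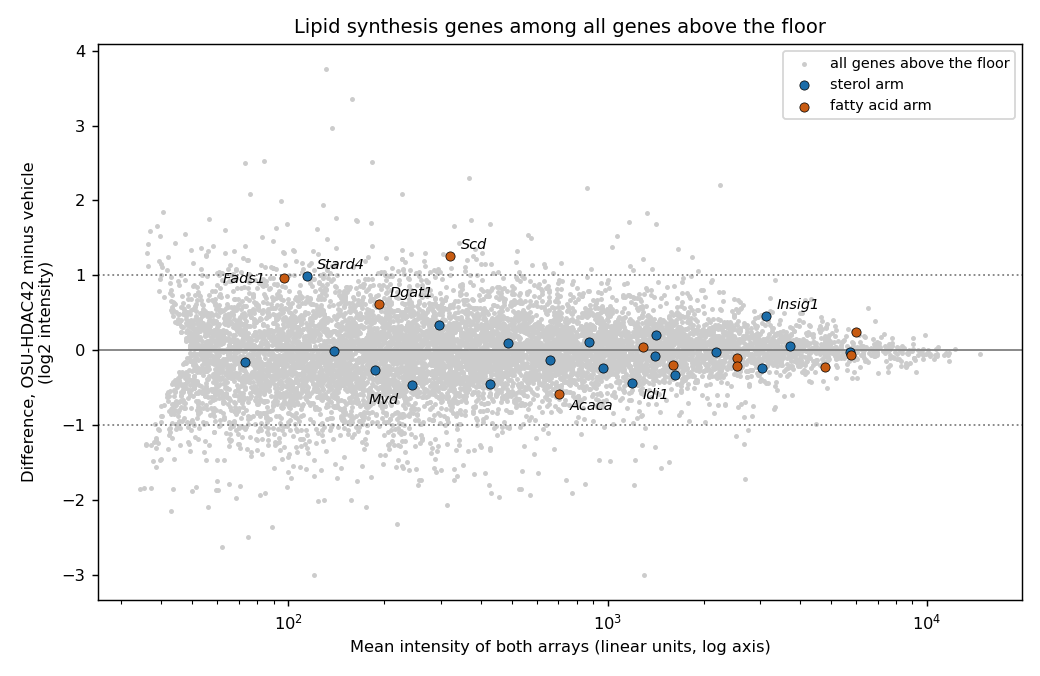
Difference in log2 intensity against the mean intensity of both arrays (log axis) for all 9542 genes above the floor (grey) and for the 31 members above it (coloured by arm), with dotted lines at 2-fold. Stard4, Fads1 and Dgat1 have mean intensities under 200, Scd lies between 200 and 1000, and the 16 members with mean intensities of 1000 or more lie between -0.44 and 0.46.

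The size of a difference went with brightness, among members as among all genes. Over the 31 members, the absolute difference and the mean intensity had a Spearman correlation of -0.41, and over all 9542 genes above the floor it was -0.32; these are correlations across genes on the same arrays and not across samples. All genes with mean intensities from the floor to 200 had an SD of 0.57, and 7.66% of them passed 2-fold. Between 200 and 1000 the SD was 0.46, with 4.21% past 2-fold, and from 1000 upward it was 0.32, with 1.14%. Members had SDs of 0.57 in each of the lower bands (6 and 9 genes) and 0.23 from 1000 upward (16 genes). Of 13 members with 2 or more probe sets above the floor, 10 had all of them on the same side of 0, and the exceptions were Mvk, Lss and Sc5d. Member probe sets of the same gene differed with a root mean square of 0.23 over 15 pairs.

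Other genes of the sterol route, listed apart from the members, were mixed. Of 19 listed, 14 were measured and 13 reached the floor, of which 6 were higher and 7 lower, with a median of -0.086. Soat1, which esterifies cholesterol for storage, was the only one past 2-fold, at 134 against 61.1 (1.13, 2.19-fold), and its other probe set was under 16 on both arrays. Scap, the escort protein of SREBP, stood at 358 against 476 (-0.41). Mbtps1, the protease that first cleaves SREBP, stood at 295 against 421 (-0.51). Mbtps2 (-0.086) and Stard3 (-0.30) were also lower, while Osbp (0.13) and Npc2 (0.066) were higher. Mbtps1 and these others were chosen after their values were seen.

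Of 34 other genes of fatty acid and glycerolipid synthesis, 30 were measured and 22 were above the floor, 7 higher and 15 lower (median -0.13), with none past 2-fold. The lipins, phosphatidic acid phosphatases, held the extremes: Lpin3 stood at 205 against 352 (-0.78) and Lpin1 at 151 against 102 (0.56), with its other probe set at 0.38. Srebf1, the SREBP that chiefly drives fatty acid genes, stood at 133 against 174 (-0.39), while its other probe set, under the floor, stood at 47.0 against 31.7 (0.57).

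The liver X receptor and efflux genes overlap in function with these routes, since the receptor senses sterols and drives Srebf1 and Scd. In this list 2 of 8 genes above the floor were past 2-fold, both lower, beside 3.18% of all genes. Nr1h3, which encodes the alpha form of the receptor, stood at 27.5 against 92.1 (-1.75), under the floor on the OSU-HDAC42 array. Nr1h2, which encodes the beta form, stood at 137 against 166 (-0.28). Abca1, a cholesterol exporter, had 290 against 2312 (7.98-fold lower) on its brightest probe set but at 80.6 against 89.6 (-0.15) on its other probe set above the floor.

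**Figure D4:**
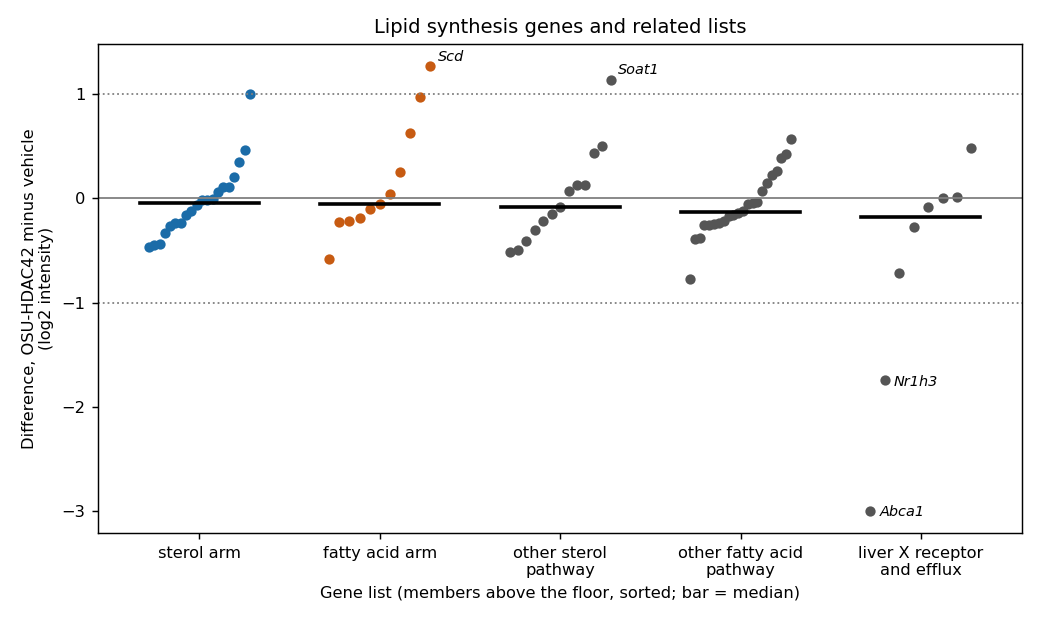
Differences in log2 intensity, OSU-HDAC42 minus vehicle, of the genes above the floor in both arms and in 3 related lists, sorted within each list, with bars at the medians and dotted lines at 2-fold. Medians lie between -0.18 and -0.046, and the genes past 2-fold are Scd, Soat1, Nr1h3 and Abca1.

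Markers of the cell types in the esophagus differed as well, and in bulk tissue fewer cells of a type and less RNA per cell cannot be told apart. All 13 skeletal muscle markers above the floor, of 14 measured, were lower (median -1.14), and their summed intensity was 14603 after OSU-HDAC42 and 28556 after vehicle. All 8 smooth muscle markers were higher (11007 against 6815 summed), as were all 7 fibroblast markers (20660 against 16410). Markers of the epithelium had closer sums, which a few very bright keratins carry, of 25072 against 26043 for 6 basal keratinocyte genes, 5 of them lower, and 49807 against 53410 for 8 suprabasal genes, 6 of them lower. Single epithelial markers differed by more, with the hemidesmosome integrin Itgb4 at 171 against 416, the envelope protein Evpl at 962 against 1552, and the differentiation markers Krt10 at 345 against 168 and Ivl at 293 against 194. Of 7 macrophage markers, 6 were higher and 1 was equal (999 against 798 summed). The 5 endothelial markers were mixed, with 2 higher and 3 lower. Among mast cell markers only Cpa3 was above the floor, at 131 against 47.5, and under it on the vehicle array. Among T and B cell markers only Cd8a was above it, at 153 against 84.5. The part of these markers in the differences of the lipid genes was not tested.

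Cell types rich in lipid synthesis outside the epithelium gave little signal. Among 9 adipocyte markers measured, Adipoq, Plin1, Lep, Cidec and Pck1 were under 16 on both arrays, and the 3 above the floor, Lpl, Fabp4 and Lipe, were lower (429 against 521 summed over the list). Of the hepatocyte markers, 0 of 7 were above the floor (146 against 150 summed). Among myelin genes, Mag and Sox10 were under 16 on both arrays. Prx (32.5 against 28.5) and S100b (21.3 against 30.2) were under the floor and went opposite ways. Pmp22, which other cells also express, and Mbp each differed by 0.51. Mbp was dim, at 50.6 against 35.6, and under the floor on the vehicle array. Pmp22, at 1159 against 817, carried most of the sum over 6 genes (1286 against 935).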

How the data were processed

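Probe set intensities, 1 value per probe set and array, were used as deposited. Per the submitters' processing notes, the software named is GCOS and RMA, in a role and version not stated; the scaling between arrays is not given in the sources used here, and any difference in total signal that it removed cannot be seen. That the intensity values are linear was read from the deposited values, which ran from 4.48 to 14947 outside the controls. Per the labels, each group had 1 array.

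Of 31099 probe sets, 57 controls were left out. The platform annotation gave 1 gene symbol for 20826 of the others, several for 436 and none for 9780; symbols were updated by gene ID to RefSeq names (GRCr8) for 14167 of 14217 genes. Intensities under 16 were raised to 16 before log2 was taken. Differences, medians and counts were computed with Python 3.11.15, pandas 2.3.3 and numpy 2.4.6, with no test, since neither group has replicates. The procedure was tested on simulated data, with changes planted only in bright genes and larger than that of any member. That test does not bear on small differences or dim genes.

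The members and lists were chosen with earlier results of these data known. All measured members are named; from each related list, genes past 2-fold (up to 4) or otherwise the 2 with the largest differences, plus Srebf1, Scap and Abca1. Mbtps1, Mbtps2, Stard3, Osbp, Npc2, Nr1h2, Scd2 and the cell type markers named singly were chosen after their values were seen. Alternatives covered scaling, raised values, probe set choice, the floor and the fold threshold.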

Additional observations from a re-analysis of the deposited data

How the results depend on the processing

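Scaling, raised value, probe set and floor alternatives left the sterol arm median between -0.081 and -0.024 and the fatty acid arm median between -0.10 and 0.00. The sterol minus fatty acid median, -0.046 as reported, turned to 0.013 with no values raised and with members limited to those above the 25th percentile or the median of intensities, to 0.015 with the median over probe sets above the floor, and to 0.057 above the 75th percentile; these settings drop or free Acacb and Fads2, which the raised value holds at 0. The count of members past 2-fold, 1 as reported, was 2 under median centring, under quantile normalization and after removal of a lowess trend, where Stard4 reached 2-fold, and by construction 4 at 1.5-fold and 0 at 3-fold. Acaca, just short of 1.5-fold lower as reported, passed it after quantile normalization and after removal of a lowess trend. Between 12 and 14 members above the floor were higher. Of 229 single-gene values, 228 moved by less than the probe set spread of 0.41 and 1 moved by more (Acaca, -0.076 with all probe sets averaged). That spread exceeds most of the reported differences, so the count cannot show that a small difference or its direction held. The sign turned for Tm7sf2, Cyp51 and Mvk. Precision is limited by the number of arrays, and intensities under 16 leave Acacb and Fads2 without a measured difference. No paired analysis was possible because there was 1 array for either treatment.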
